A study of Rattus norvegicus with 6 samples.

Results

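Oligodendrocyte precursor cells (OPCs) are the glia of the adult brain that divide and give rise to myelinating oligodendrocytes. They are tiled through grey and white matter, carry the receptor for platelet-derived growth factor (Pdgfra) and the proteoglycan NG2 (Cspg4), receive synapses from neurons and respond to injury by dividing, migrating and depositing proteoglycans. On the way to myelin they pass through a committed stage that is marked by Bcas1, Gpr17 and Enpp6, and myelin genes such as Mbp follow.

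OPC nuclei with at most 1 cell cycle UMI were examined here in single-nucleus RNA sequencing of rat brain 48 h after stroke. A UMI (unique molecular identifier) stands for 1 captured RNA molecule. A nucleus was a member if it passed 3 quality limits (at least 500 UMIs, 250 to 5000 genes and at most 5% mitochondrial UMIs) and if its OPC markers Pdgfra, Cspg4, C1ql1 and Vcan summed to at least 4 UMIs and at least 0.3% of its UMIs. Another marker of the rule, Ptprz1, was not matched to a row of the files, so 4 of 5 markers were summed. Members had at most 3 UMIs of the neuronal genes Snap25, Syt1 and Rbfox3, at most 1 UMI of the fibroblast genes Col1a1, Col1a2, Col3a1 and Dcn, and at most 1 UMI of the cell cycle genes Mki67, Top2a, Cenpf and Knl1. The rule found 591 members among 73649 nuclei past the limits, out of 73826 in the files. A further 67 nuclei met every other condition but had 2 or more cell cycle UMIs and were left out.

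All animals were male wild-type Wistar rats aged 12 weeks. In the MCAO groups the right middle cerebral artery was occluded permanently with an intraluminal filament, and Sham rats were operated on without that occlusion. Coronal slices were divided by hemisphere, which gave 6 libraries in 3 groups of 2. The Sham libraries Sham L and Sham R hold the left and right hemispheres of the same 4 rats. MCAO ipsi is the infarcted hemisphere and MCAO contra the opposite one, each with a library of 3 rats with moderate infarcts (mMCAO) and a library of 4 rats with severe infarcts (sMCAO). Nuclei of several rats were pooled in each library, so the spread between single animals was not measured, and within an MCAO group the spread between libraries includes the severity of the infarct. Where values are given in pairs, Sham L stands before Sham R and mMCAO before sMCAO. Total UMIs per library ranged from 33012945 in sMCAO ipsi to 52513380 in mMCAO contra.

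OPC nuclei made up a larger share of the MCAO libraries than of the Sham libraries, and the largest share was that of sMCAO ipsi. There were 37 and 20 OPC nuclei in Sham, 123 and 87 in MCAO contra, and 136 and 188 in MCAO ipsi. These were 0.282% (95% Clopper-Pearson interval 0.199 to 0.388%) and 0.147% (0.0897 to 0.227%) of the nuclei in Sham, 0.849% (0.706 to 1.01%) and 0.806% (0.646 to 0.993%) in MCAO contra, and 1.05% (0.882 to 1.24%) and 2.17% (1.87 to 2.50%) in MCAO ipsi. Every MCAO library lay above both Sham libraries, and the intervals, which cover counting error only, did not meet those of the Sham libraries. By group the share was 0.213% in Sham (0.161 to 0.276%), 0.831% in MCAO contra (0.722 to 0.95%) and 1.5% in MCAO ipsi (1.34 to 1.67%). With 2 libraries a group the smallest two-sided p of an exact permutation test is 0.33, so no p is given for shares.

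The denominator of these shares is mostly neurons, whose number differed between libraries: 10686 and 11710 nuclei in Sham, 10805 and 8182 in MCAO contra, and 8880 and 3209 in MCAO ipsi met the matching rule for neurons. Among nuclei with at most 3 UMIs of the 3 neuronal genes, OPC nuclei made up 1.61% (1.13 to 2.21%) and 1.13% (0.690 to 1.73%) in Sham, 3.48% (2.90 to 4.14%) and 3.50% (2.81 to 4.30%) in MCAO contra, and 3.47% (2.92 to 4.09%) and 3.49% (3.01 to 4.01%) in MCAO ipsi. On that denominator the 4 MCAO libraries overlapped one another and all lay above the Sham libraries. Other glia were fewer in Sham as well: astrocyte nuclei numbered 222 and 186 in Sham, 353 and 239 in MCAO contra, and 375 and 364 in MCAO ipsi, and oligodendrocyte nuclei 647 and 211, 1273 and 839, and 718 and 1108. The 2 Sham libraries thus differed in oligodendrocytes although they hold hemispheres of the same rats, and the part of these differences in the OPC shares was not tested. The share of nuclei with at most 1 cell cycle UMI among all OPC nuclei was 96.6% in Sham, 96.3% in MCAO contra and 85.0% in MCAO ipsi.

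**Figure D1:**
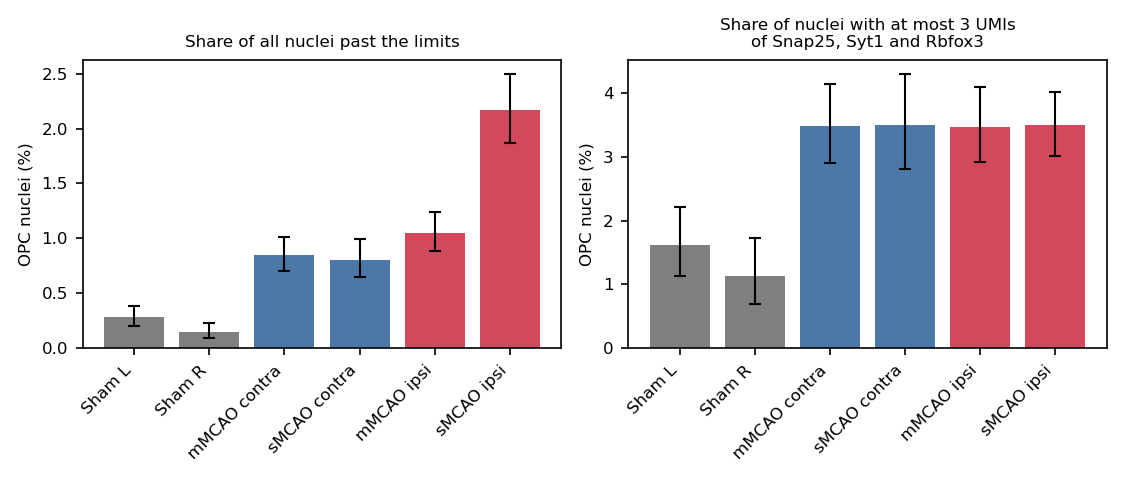
OPC nuclei per library as a percentage of all nuclei past the quality limits and as a percentage of nuclei with at most 3 neuronal UMIs, with 95% Clopper-Pearson intervals. In the first measure sMCAO ipsi stands highest at 2.17%, and in the second the 4 MCAO libraries lie between 3.47 and 3.50%, above Sham L at 1.61% and Sham R at 1.13%.

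OPC nuclei were shallow and their depth differed with the library. The median UMI count per OPC nucleus was 909 and 699.5 in Sham, 1195 and 1083 in MCAO contra, and 958 and 1545 in MCAO ipsi, whereas the median over all nuclei was lowest in sMCAO ipsi (2059) and highest in mMCAO contra (3360). Summed over OPC nuclei, the libraries held 34935, 16511, 154837, 100020, 145447 and 302173 UMIs in the same order. The Sham profile thus rests on 57 nuclei, and Sham L and Sham R were less alike than the library pair of either MCAO group (Pearson r of log2 levels across genes 0.548, against 0.903 between the MCAO contra libraries and 0.897 between the MCAO ipsi libraries). Library pairs shared 118 to 281 cell barcodes, none of them of an OPC nucleus.

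When each nucleus was thinned to 1000 UMIs, with a marker minimum of 3 UMIs, the shares were 0.259% and 0.123% in Sham, 1.08% and 0.897% in MCAO contra, and 1.03% and 3.54% in MCAO ipsi, leaving out 1434 to 2476 shallower nuclei per library. The thresholds cut through a continuous range of nuclei. There were 148 members with exactly 4 marker UMIs and 180 nuclei that met the other conditions with 3. By library the members with 4 numbered 15 and 11 in Sham, 35 and 28 in MCAO contra, and 44 and 15 in MCAO ipsi, and the nuclei with 3 numbered 36 and 27, 18 and 23, and 65 and 11, so that in Sham and in mMCAO ipsi more nuclei lay just outside than just inside. A marker share of 0.30 to 0.35% was held by 68 members, and 96 nuclei just outside had 0.25 to 0.30%. Of the members 39 had 3 neuronal UMIs and 34 had 1 cell cycle UMI, against 26 nuclei outside with 4 and 18 with 2.

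Members were chosen by the UMI counts of these genes in the same nuclei, so the marker genes are given as a description. Levels are in CPM, the UMIs of a gene per 1000000 UMIs of the OPC nuclei of a library. Vcan, the proteoglycan versican, gave 76.4% of all marker UMIs, at 4294 and 4482 CPM in Sham, 3145 and 3239 in MCAO contra, and 4393 and 4792 in MCAO ipsi. Pdgfra was at 744, 666, 885, 1010, 694 and 506 CPM in the same order, with its lowest level in sMCAO ipsi and its highest in sMCAO contra. Cspg4 lay between 200 and 424 CPM, and C1ql1, a secreted complement-like protein, between 200 and 344 CPM. The OPC markers summed to 5439, 5814, 4650, 4889, 5645 and 5864 CPM. Markers of committed precursors (5 of 5 matched, most abundant Bcas1), which the rule did not use, summed to 5668, 4603, 4695, 4489, 3665 and 3839 CPM. They lay above the OPC markers in Sham L and mMCAO contra.

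Most members carried OPC genes that the rule did not use. Sox6, a transcription factor that holds OPCs in the undifferentiated state, or Pcdh15, a protocadherin of OPCs, was found in 540 of 591 nuclei. After thinning to 500 UMIs the share was 83.8% and 80.0% in Sham, 98.4% and 94.3% in MCAO contra, and 93.4% and 73.9% in MCAO ipsi, against 32.0 to 35.7% in neurons. Bcas1 was found in 48.4 to 67.6% of thinned OPC nuclei and in 0.800 to 1.5% of thinned neurons. A UMI of Pdgfra, Cspg4 or C1ql1 was present in 415 nuclei, and the other 176 met the rule through Vcan alone.

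The 176 nuclei with Vcan alone were of 2 kinds. Sox6 or Pcdh15 was present in 130 of them, and these had more RNA of committed precursors than the 415: Bcas1 was at 6288 CPM against 2658, Enpp6, a choline phosphodiesterase of newly formed oligodendrocytes, at 421 against 67.4, and Mbp, myelin basic protein, at 613 against 288. The remaining 46 held neither gene, and 40 of them came from sMCAO ipsi, 4 from mMCAO ipsi and 1 from each Sham library. For these 46 nuclei the data went against the name OPC: their microglia and macrophage markers summed to 4056 CPM, against 297 in the 415.

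At least 2 UMIs of 10 microglia and macrophage markers were present in 2 and 0 nuclei of the Sham libraries, 7 and 4 of MCAO contra, and 10 and 38 of MCAO ipsi. In sMCAO ipsi these were 20.2% of the members (14.7 to 26.7%), and 34 of the 38 met the rule through Vcan alone. The 38 nuclei held the leukocyte phosphatase Ptprc at 1227 CPM, the integrin Itgam at 810, fibronectin (Fn1) at 1791, Gpnmb at 1030 and Pdgfra at 49.1. Without the nuclei of 2 or more myeloid UMIs the share of OPC nuclei in sMCAO ipsi was 1.73% (1.47 to 2.03%), still above the other 5 libraries, and with only the nuclei that had Pdgfra, Cspg4 or C1ql1 it was 1.35% (1.12 to 1.62%). Below, myeloid nuclei stands for all members with 2 or more of these UMIs, 61 in all. Of the 61, 33 held neither Sox6 nor Pcdh15, 32 of them in sMCAO ipsi, and most in the other libraries carried an OPC gene. In sMCAO ipsi 43 members held neither gene, so some of that kind remain without myeloid nuclei.

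**Figure D2:**
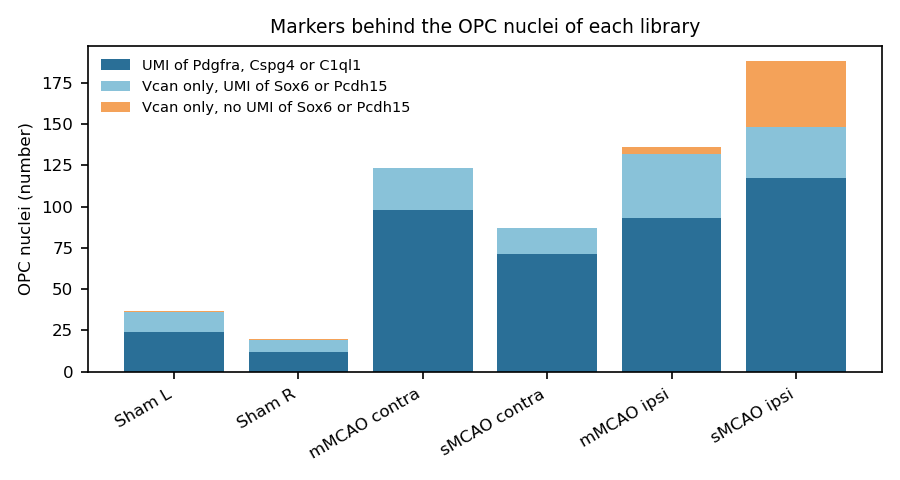
OPC nuclei of each library divided by marker content: a UMI of Pdgfra, Cspg4 or C1ql1, Vcan alone with Sox6 or Pcdh15, and Vcan alone without either. The last kind numbers 40 in sMCAO ipsi, 4 in mMCAO ipsi and at most 1 in each other library.

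Marker genes of other cell types were measured in OPC nuclei. Neuron markers outside the rule (11 of 12 matched, most abundant Syn1) summed to 343 and 182 CPM in Sham, 239 and 270 in MCAO contra, and 165 and 129 in MCAO ipsi, and scaled to the neurons of the same library they amounted to 26.3, 13.8, 17.2, 19.1, 14.4 and 12.4% of a neuronal profile. These values rest on 12, 3, 37, 27, 24 and 39 UMIs. The scaled shares thus carry a counting error, above all in Sham, which the tests after subtraction did not take into account. Microglia and macrophage markers (10 of 10, most abundant Apbb1ip) summed to 286, 121, 207, 350, 364 and 741 CPM. Mitochondrial transcripts were at 401, 545, 471, 650, 1052 and 3773 CPM, and ribosomal protein genes at 945, 1030, 924, 930, 1327 and 3293 CPM. Levels of myeloid markers, mitochondrial transcripts and ribosomal protein genes were highest in sMCAO ipsi. Its neuron marker level was the lowest, but on few UMIs, and its order against Sham R and mMCAO ipsi was not tested. The part of these 4 measures in the differences between groups was not tested, apart from the values without myeloid nuclei and without the neuronal profile that are given beside the results.

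Markers of other glia were highest in Sham R. Astrocyte markers (9 of 9, most abundant Slc1a2) summed to between 240 CPM in sMCAO contra and 848 in Sham R, and oligodendrocyte markers (9 of 9, most abundant Myrf) to between 235 in sMCAO ipsi and 969 in Sham R, above the neuron markers in every library. Endothelial markers (4 of 6, most abundant Pecam1) reached at most 70.0 CPM and pericyte and fibroblast markers (8 of 8, most abundant Lama2, Col3a1 at 0) at most 57.2 CPM. Ependymal markers (2 of 4) were at 303 CPM in Sham R, 9.93 in sMCAO ipsi and 0 in the others.

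Beside the marker genes, a set of genes stood out in OPC nuclei against neurons, astrocytes and oligodendrocytes of the same libraries. These genes are listed by the ratio of the mean level over the 6 libraries to the next highest class, as a description without a test. The largest ratios were those of Megf11, a receptor with EGF-like repeats (1182 CPM, 21.9 times the next class), Calcrl, the calcitonin receptor-like receptor (314 CPM, 19.0 times), and Myt1, a zinc finger transcription factor of the lineage (551 CPM, 16.1 times). Matrix genes followed, with the laminin chain Lama4 at 448 CPM (11.8 times), tenascin-R (Tnr) at 1022 CPM (6.97 times) and Xylt1, which starts proteoglycan chains, at 1694 CPM (4.7 times). Nxph1, a neurexin ligand, was at 4037 CPM (6.40 times) and Pcdh15 at 4843 CPM (5.05 times). Tnr varied little between libraries (908 to 1195 CPM), whereas Ccbe1, a secreted collagen- and EGF-domain protein with a ratio of 11.8, ranged from 96.0 CPM in sMCAO ipsi to 666 in Sham R.

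For tests between groups, UMIs were summed over the OPC nuclei of each library and fitted with edgeR's quasi-likelihood method over all 6 libraries. Of the genes in the files 3126 had enough UMIs. Genes passed as called when the Benjamini-Hochberg adjusted p was under 0.05 and the log2 fold change was 0.6 or more in either direction. Between MCAO ipsi and Sham 44 genes (1.41%) were called, of which 15 genes (0.480% of those tested) were higher in MCAO ipsi and 29 (0.928%) were lower. Syt1, 1 of the 29, is a neuronal gene whose UMIs the rule limited, so its call rests in part on values that chose the members. Between MCAO ipsi and MCAO contra 89 (2.85%) were called, 41 (1.31%) higher and 48 (1.54%) lower. Between MCAO contra and Sham no gene was called in either direction (0%) in this edgeR fit or with DESeq2. There 246 genes had an unadjusted edgeR p under 0.05 and the smallest adjusted p was 0.214. Other edgeR settings did call genes in this comparison, as given below and at the end. The median log2 fold change over all genes was 0.07, 0.00 and 0.07 in these comparisons.

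The counts against Sham depended on the 2 small Sham libraries: without Sham L 0 genes were higher and 0 lower in MCAO ipsi, and without Sham R 0 and 3. Without mMCAO ipsi they were 85 and 69, and without sMCAO ipsi 9 and 13. The 2 hemispheres of an MCAO rat pool share their animals, whereas the Sham rats are a pool of their own, so the pool as a block pairs only the MCAO libraries. With the block, which takes the difference between severe and moderate pools out of the residual spread, 33 genes were higher and 55 lower against Sham, and 53 higher and 85 lower against MCAO contra. In that fit the moderate pool alone had 7 genes higher and 22 lower against Sham, and the severe pool alone 46 and 73. Without nuclei of 2 or more myeloid UMIs the counts were 16 and 28 against Sham and 37 and 49 against MCAO contra. When the neuronal profile of each library was subtracted at its scaled share, 3 genes were higher and 7 lower against Sham, and 23 and 31 against MCAO contra. Negative counts were set to 0 in that step, so a large fold change after subtraction can rest on few remaining UMIs. Among nuclei with a UMI of Pdgfra, Cspg4 or C1ql1 they were 19 and 14 of 2518 tested, and 34 and 53, and 8 of the 15 higher and 10 of the 29 lower genes against Sham were among them. Without the nuclei that had 5 or more UMIs of astrocyte, oligodendrocyte or myeloid markers they were 14 and 20, and 32 and 44. The counts against MCAO contra also moved with DESeq2 and when a library was left out, as given at the end.

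The genes that were higher in MCAO ipsi than in Sham included a guidance ligand, a cytokine receptor chain, a Notch coactivator and genes of the extracellular matrix. Sema3e, a secreted semaphorin that binds plexin receptors, was at 85.9 and 182 CPM in Sham, 136 and 190 in MCAO contra, and 653 and 543 in MCAO ipsi. Both MCAO ipsi libraries lay above the other 4, and Sema3e rose against Sham (edgeR log2 fold change 2.41 ± 0.45 SE, adjusted p = 0.00561) and against MCAO contra (1.88 ± 0.27, adjusted p = 1.09e-04). It kept its call against Sham after subtraction of the neuronal profile (edgeR adjusted p = 0.0480) and among nuclei with Pdgfra, Cspg4 or C1ql1 (0.0284). The Sham levels of Sema3e rest on 3 and 3 UMIs, and on 2 and 0 among the nuclei with Pdgfra, Cspg4 or C1ql1.

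Il1rap, the accessory chain of interleukin receptors including that of Il33, was at 114, 182, 239, 220, 454 and 536 CPM in the same library order (log2 fold change against Sham 1.95 ± 0.43, edgeR adjusted p = 0.0191). Maml3, a coactivator of Notch target genes, was at 401, 242, 465, 460, 846 and 966 CPM (1.47 ± 0.31, edgeR adjusted p = 0.0156). Trps1, a zinc finger repressor of transcription, was at 172, 242, 336, 310, 516 and 708 CPM (1.75 ± 0.39, edgeR adjusted p = 0.0191). In all 3 the MCAO ipsi libraries lay above the other 4, and all 3 were also called against MCAO contra, with log2 fold changes of 1.10 for Il1rap, 0.92 for Trps1 and 0.96 for Maml3 (edgeR adjusted p = 0.00900, 0.0205 and 0.00630). After subtraction of the neuronal profile the log2 fold changes against Sham were no smaller, at 2.09 for Il1rap, 1.95 for Trps1 and 1.63 for Maml3, but none of the 3 was called (edgeR adjusted p = 0.0614, 0.0636 and 0.0614), and Il1rap and Maml3 were still called against MCAO contra (0.0480 and 0.0458). Among nuclei with Pdgfra, Cspg4 or C1ql1 Il1rap was called against Sham (edgeR adjusted p = 0.00495). The Sham libraries held 4 and 3 UMIs of Il1rap in all members, and 1 and 1 among these nuclei. Trps1 was called only against MCAO contra there (0.0117), with 1.48 against Sham (edgeR adjusted p = 0.102). Maml3 was called in neither comparison, with 1.02 against Sham and 0.68 against MCAO contra (edgeR adjusted p = 0.188 and 0.0825). With DESeq2 Trps1 was not called against MCAO contra (0.93, adjusted p = 0.0652).

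Col11a1, a fibrillar collagen chain, was at 143 and 121 CPM in Sham, 96.9 and 170 in MCAO contra, and 330 and 751 in MCAO ipsi. It was called against Sham (2.13 ± 0.54, edgeR adjusted p = 0.0423) but not without myeloid nuclei (log2 fold change 1.92, adjusted p = 0.141), after subtraction of the neuronal profile (2.25, 0.169), among nuclei with Pdgfra, Cspg4 or C1ql1 (0.0963, with 1 UMI in Sham), for the moderate pool alone (1.41, 0.227) or with DESeq2 (2.09, 0.0688). Against MCAO contra its log2 fold change was 2.13 (edgeR adjusted p = 6.27e-04), and 0.00740 without myeloid nuclei. Chst11, which sulfates chondroitin chains, was at 343, 545, 769, 920, 887 and 1009 CPM (1.29 ± 0.31, edgeR adjusted p = 0.0285, 0.105 after subtraction of the neuronal profile, with the same log2 fold change, and 0.0725 for the moderate pool alone).

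Chst11 belonged to a set of genes whose MCAO contra libraries also lay above both Sham libraries, with no call between MCAO ipsi and MCAO contra. Stk32a, a serine/threonine kinase, had 1 and 0 UMIs in the Sham libraries, 24 and 23 in MCAO contra and 47 and 110 in MCAO ipsi, or 28.6, 0, 155, 230, 323 and 364 CPM. From the counts the level in MCAO ipsi was 18.0 times that in Sham (95% counting interval 3.19 to 717; edgeR log2 fold change 4.17 ± 0.79, adjusted p = 0.00561). Rab8b, a small GTPase of vesicle transport, was at 28.6, 0, 155, 140, 172 and 258 CPM (11.8 times, 2.08 to 472), and Lpp, a focal adhesion protein, at 28.6, 60.6, 226, 170, 186 and 371 CPM (7.99 times, 2.17 to 66.6).

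The edgeR adjusted p was 0.0423 for Rab8b and 0.0436 for Lpp, 0.0586 for each without myeloid nuclei, 0.0740 and 0.0725 for the moderate pool alone, 0.107 and 0.129 among nuclei with Pdgfra, Cspg4 or C1ql1, and 0.143 and 0.135 after subtraction of the neuronal profile. Without nuclei of 5 or more UMIs of other glia it was 0.0573 and 0.0854, with log2 fold changes of 3.42 and 2.83. The log2 fold changes were 3.54 for Rab8b and 2.96 for Lpp, against 3.35 and 2.88 without myeloid nuclei and 3.44 and 3.79 after subtraction. Among nuclei with Pdgfra, Cspg4 or C1ql1 Lpp had 2.45, and Rab8b had no UMI in either Sham library, so no fold is given. Stk32a kept its call in each of these (edgeR adjusted p = 0.0480 after subtraction). Among nuclei with Pdgfra, Cspg4 or C1ql1, however, Stk32a had no UMI in either Sham library as well, so its call there rests on that absence. With DESeq2 the adjusted p was 0.0593 for Stk32a and 0.109 for Lpp. Further genes showed the same order of groups. Sox6 was at 1632, 1090, 2422, 2450, 2503 and 2767 CPM (0.98 ± 0.25, edgeR adjusted p = 0.0436) and Brinp3, a neural gene induced by retinoic acid, at 916, 1151, 1666, 1750, 1994 and 2025 CPM (1.09 ± 0.25, adjusted p = 0.0225). Adgrl3, the adhesion receptor latrophilin-3, was at 1603, 1332, 2209, 2719, 2819 and 3025 CPM (1.06 ± 0.25, edgeR adjusted p = 0.0257), and Srgap1, which acts on small GTPases downstream of Robo receptors, at 172, 242, 446, 440, 502 and 523 CPM (1.47 ± 0.38, adjusted p = 0.0436).

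In each of these 4 genes every MCAO library lay above both Sham libraries. None was called between MCAO contra and Sham, where Sox6 had a log2 difference of 0.88 ± 0.25 and Brinp3 of 0.87 ± 0.25 (edgeR adjusted p = 0.335 for both), Adgrl3 of 0.82 ± 0.25 (0.352) and Srgap1 of 1.28 ± 0.39 (0.369). For the moderate pool alone Sox6 (0.93, edgeR adjusted p = 0.0725), Adgrl3 (0.95, 0.0642) and Srgap1 (1.46, 0.0740) were not called against Sham, and Brinp3 was. After subtraction of the neuronal profile the log2 fold changes were 0.96 for Sox6, 1.17 for Brinp3, 1.22 for Adgrl3 and 1.52 for Srgap1, but none of the 4 was called (edgeR adjusted p = 0.175, 0.0698, 0.0636 and 0.128). Among nuclei with Pdgfra, Cspg4 or C1ql1 all but Srgap1 were called (1.57, edgeR adjusted p = 0.123). Srgap1 was not called with DESeq2 either (1.46, adjusted p = 0.0816), nor without nuclei of 5 or more UMIs of other glia (1.42, edgeR adjusted p = 0.0704). The other 2 genes called higher were transcripts of the mitochondrial genome, Mt-cyb among them.

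**Figure D3:**
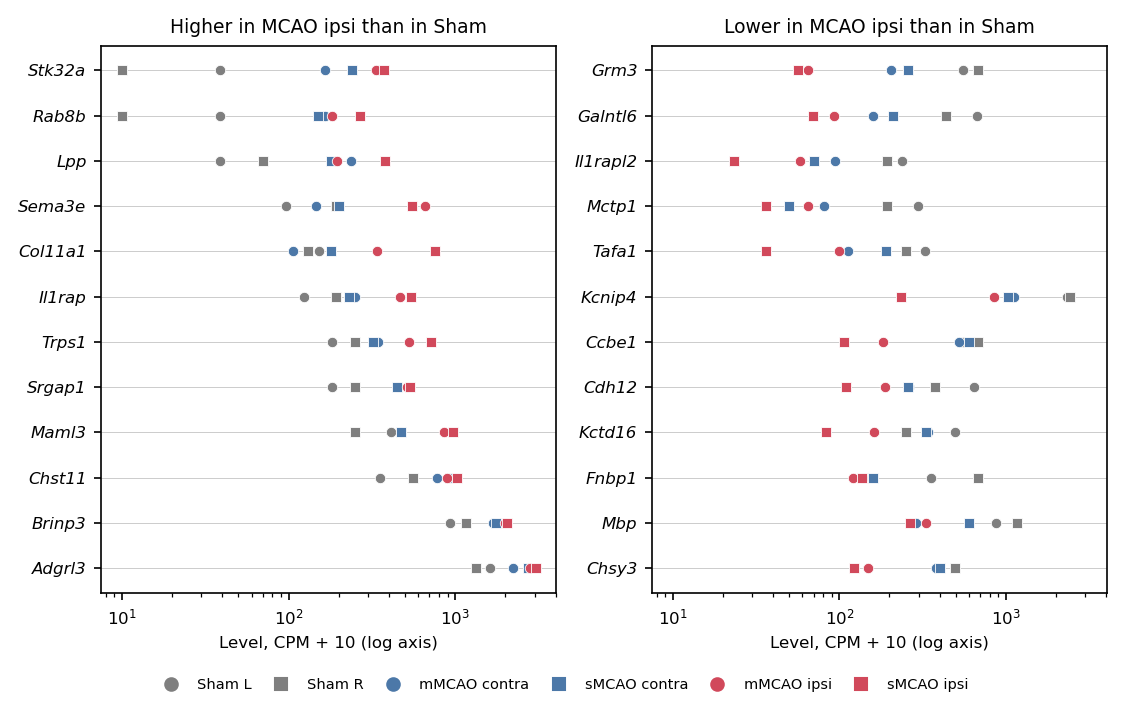
Level in OPC nuclei (CPM, log axis) of genes called between MCAO ipsi and Sham, 1 point per library, coloured by group. Sema3e reaches 653 and 543 CPM in the MCAO ipsi libraries against at most 190 in the others, and Grm3 falls from 544 and 666 CPM in the Sham libraries to 55.0 and 46.3.

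Among the genes that were lower in MCAO ipsi, the smallest adjusted p was that of Grm3, a metabotropic glutamate receptor. Grm3 was at 544 and 666 CPM in Sham, 194 and 250 in MCAO contra, and 55.0 and 46.3 in MCAO ipsi. The 3 groups did not overlap, and Grm3 fell against Sham (edgeR log2 fold change −3.46 ± 0.43, adjusted p = 2.93e-05) and against MCAO contra (−2.13, adjusted p = 9.22e-04). Its level in Sham neurons was 0.564 times that in Sham OPC nuclei, and after subtraction of the neuronal profile the change against Sham was −5.34 (edgeR adjusted p = 1.44e-04). The MCAO ipsi libraries held 8 and 14 UMIs of Grm3 before subtraction and fewer after it, so the larger fold is not a stronger drop. Its level was higher in other glia, at 3636 and 3182 CPM in the oligodendrocytes and at 1429 and 1824 CPM in the astrocytes of the Sham libraries, and markers of both classes were highest in Sham R. Without the OPC nuclei that had 5 or more UMIs of astrocyte, oligodendrocyte or myeloid markers the change was −3.66 against Sham (edgeR adjusted p = 2.46e-04) and −1.64 against MCAO contra (0.0642, not called).

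Ccbe1 was at 544 and 666 CPM in Sham, 510 and 590 in MCAO contra, and 172 and 96.0 in MCAO ipsi. Here the Sham and MCAO contra libraries overlapped, and both MCAO ipsi libraries lay below them (against Sham −2.14 ± 0.37, edgeR adjusted p = 0.00324; against MCAO contra −2.14 ± 0.27, adjusted p = 6.10e-05). The level of Ccbe1 in Sham neurons was 0.0522 times that in Sham OPC nuclei. It kept its call after subtraction (edgeR adjusted p = 0.0354), which could remove little of it. Chsy3, a chondroitin synthase, had the same order, at 372, 485, 368, 390, 138 and 113 CPM (against Sham −1.66, edgeR adjusted p = 0.0305). Against Sham it was not called after subtraction (−3.07, edgeR adjusted p = 0.0577) or for the moderate pool alone (−1.62, 0.0621). Among nuclei with Pdgfra, Cspg4 or C1ql1 it had −1.16 and was not called either (edgeR adjusted p = 0.395). Against MCAO contra it had −1.64 (edgeR adjusted p = 9.65e-04).

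Mbp was at 859 and 1151 CPM in Sham, 278 and 590 in MCAO contra, and 323 and 255 in MCAO ipsi (−1.68 ± 0.33, edgeR adjusted p = 0.00712). All MCAO libraries lay below both Sham libraries, and the 2 MCAO groups overlapped. The call held after subtraction of the neuronal profile (edgeR adjusted p = 0.0480). Mbp in Sham neurons was only 0.0738 times as high as in Sham OPC nuclei, so that step could remove little of it. No oligodendrocyte profile was subtracted. It was lost among nuclei with Pdgfra, Cspg4 or C1ql1 (−1.28, edgeR adjusted p = 0.210), where the Sham libraries held 15 and 6 UMIs. Oligodendrocyte markers were highest in Sham R as well, and without the OPC nuclei that had 5 or more UMIs of oligodendrocyte, astrocyte or myeloid markers Mbp had −1.62 and was called (edgeR adjusted p = 0.0177). Fnbp1, which bends membranes in endocytosis, was at 343, 666, 129, 150, 110 and 126 CPM (−1.83 ± 0.42, edgeR adjusted p = 0.0218, 0.0614 with −1.99 after subtraction and 0.0846 with −1.84 among nuclei with Pdgfra, Cspg4 or C1ql1), with every MCAO library below both Sham libraries.

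Many of the other lower genes are genes of neurons. Kcnip4, an accessory subunit of A-type potassium channels, was at 2319 and 2423 CPM in Sham, 1104 and 1020 in MCAO contra, and 839 and 225 in MCAO ipsi (−2.15 ± 0.36, edgeR adjusted p = 0.00186), and was not called with DESeq2 (−2.09, adjusted p = 0.0791). In Sham neurons it was 5.21 times as high as in Sham OPC nuclei. Galntl6, of the family that starts mucin-type glycans, was at 658, 424, 149, 200, 82.5 and 59.6 CPM (−2.99 ± 0.43, edgeR adjusted p = 2.44e-04) and 4.11 times as high in Sham neurons. For both genes every MCAO library lay below both Sham libraries, and neither had enough UMIs left to be tested after subtraction of the neuronal profile.

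The same held for the secreted protein Tafa1 (4.68 times as high in Sham neurons, log2 fold change −2.47 ± 0.63), the adhesion molecule Il1rapl2 (4.07 times, −2.92 ± 0.75), the calcium-binding membrane protein Mctp1 (3.41 times, −2.65 ± 0.67) and the cadherin Cdh12 (3.60 times, −1.96). Their edgeR adjusted p against Sham was 0.0434, 0.0436, 0.0415 and 0.0125, and for the moderate pool alone it was 0.123 for Il1rapl2 and 0.144 for Mctp1. Among nuclei with Pdgfra, Cspg4 or C1ql1 none of the 4 was called (edgeR adjusted p = 0.206, 0.201, 0.0738 and 0.0963), with log2 fold changes of −2.16, −2.59, −3.11 and −1.70. Without nuclei of 5 or more UMIs of other glia Tafa1 (−2.37, edgeR adjusted p = 0.0646), Il1rapl2 (−2.98, 0.0722) and Mctp1 (−2.75, 0.0704) were not called. Il1rapl2 was not called without myeloid nuclei either (−2.90, edgeR adjusted p = 0.0530). Kctd16, an accessory subunit of GABA-B receptors, was 3.82 times as high in Sham neurons and had a log2 fold change of −1.89 (edgeR adjusted p = 0.0341). It was not called after subtraction (−6.55, edgeR adjusted p = 0.0829, from 22 and 22 UMIs in MCAO ipsi before subtraction) or for the moderate pool alone (−1.64, 0.0636).

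Of the 29 lower genes 20 (69.0%) had a higher mean level over the 6 libraries in neurons than in OPC nuclei, as had 33 of 48 (68.8%) against MCAO contra, and 950 of 3126 (30.4%) of all tested genes. Without Syt1 and the other genes of the rule it was 19 of 28 (67.9%) against Sham and 947 of 3119 tested. Of the higher genes these were 0 of 15 and 8 of 41 (19.5%). The neuronal marker level in OPC nuclei was highest in Sham L and lowest in sMCAO ipsi, on the few UMIs given above. Apart from these marker levels and the subtraction, the part of free neuronal RNA in the lower genes was not tested.

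**Figure D4:**
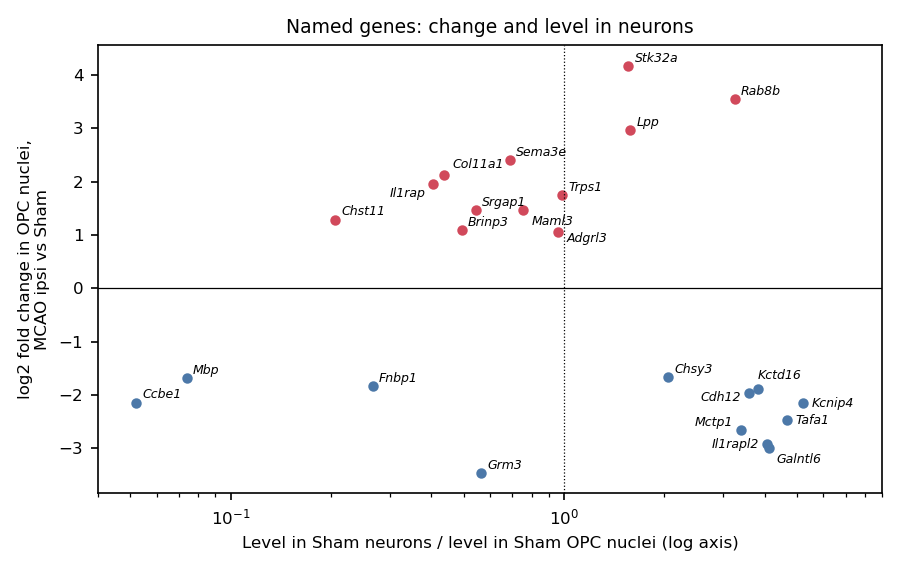
Log2 fold change in OPC nuclei between MCAO ipsi and Sham (vertical axis) against the ratio of the level in Sham neurons to the level in Sham OPC nuclei (horizontal log axis), 1 point for each of the 12 higher and 12 lower genes named for the largest change against Sham. Ccbe1 and Mbp lie left, at 0.0522 and 0.0738, and Kcnip4 lies farthest right of these at 5.21, while the 3 higher genes right of a ratio of 1 (Stk32a, Rab8b and Lpp) have at most 2 UMIs in Sham OPC nuclei.

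Gene groups were described by how many of their members were called, beside 0.480% higher and 0.928% lower among all tested genes against Sham, and a median log2 fold change of 0.07. Of 24 OPC identity genes found in the files 16 were tested, with Sox6 and Brinp3 higher, none lower and a median of 0.09. The summed level of the group was 20724 and 19078 CPM in Sham, 29347 and 28024 in MCAO contra, and 23500 and 22494 in MCAO ipsi. It was highest in MCAO contra, where Pcdh15 was at 6652 and 6199 CPM against 4236 and 3937 in Sham and 4510 and 3524 in MCAO ipsi, a difference that was not called (MCAO contra against Sham 0.76 ± 0.23, edgeR adjusted p = 0.369).

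Of 15 tested genes of committed precursors and myelin, Mbp was called lower and 4 had a positive change against Sham, with a median of −0.82. Enpp6 was at 372, 363, 220, 120, 144 and 89.4 CPM (−1.66, edgeR adjusted p = 0.0728). Tns3, a tensin of newly differentiating cells, was at 1202, 1211, 956, 710, 591 and 599 CPM (−0.93, edgeR adjusted p = 0.0607). In both genes the MCAO libraries all lay below the Sham libraries without passing the test, and Bcas1 (4637, 3573, 3726, 3829, 2874 and 3084 CPM, −0.39) had an edgeR adjusted p of 0.518.

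Ion channel genes are given beside 1.54% of all tested genes lower against MCAO contra. Of 17 tested potassium channel genes Kcnip4 was lower against Sham (median −0.52), and 3 of the 17, Kcnd2, Kcnip1 and Kcnma1, were lower against MCAO contra (median −0.75, beside 0.00 over all genes). Kcnd2, the pore subunit that Kcnip4 and Kcnip1 assist, was at 1946 and 2604 CPM in Sham, 3119 and 2989 in MCAO contra, and 1836 and 1181 in MCAO ipsi. Both MCAO ipsi libraries lay below the other 4, and Kcnd2 fell against MCAO contra (−1.05 ± 0.22, edgeR adjusted p = 0.00567) but was not called against Sham (−0.47 ± 0.25, 0.469). Kcnip1 had −1.10 (edgeR adjusted p = 0.0348, and −1.08 with 0.0688 by DESeq2) and Kcnma1, a calcium-activated channel, −0.75 (0.0387, and −0.66 with 0.0601 without myeloid nuclei). Without myeloid nuclei 5 potassium channel genes were lower against MCAO contra, and against Sham 1 was lower and 1 higher.

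Of 13 tested sodium and calcium channel genes none was called against Sham (median −0.32), and 2 of the 13, the calcium channel subunits Cacna1e and Cacnb4, were lower against MCAO contra (−1.28 and −1.15, edgeR adjusted p = 0.00481 and 0.0463; median −0.52). Cacnb4 was not called without myeloid nuclei (−1.06, edgeR adjusted p = 0.0748) or with DESeq2 (0.112). After subtraction of the neuronal profile 1 of 14 potassium channel genes and 1 of 12 sodium and calcium channel genes that could be tested were lower against MCAO contra, and none of them was lower and 1 potassium channel gene higher against Sham. Of 24 tested genes of glutamate receptors and uptake Grm3 was lower against Sham (median −0.05), and Grm3 and the NMDA receptor subunit Grin2b (−1.78, edgeR adjusted p = 0.0463) against MCAO contra (median −0.21). Grin2b was 7.98 times as high in Sham neurons as in Sham OPC nuclei, was not called without myeloid nuclei (−1.87, edgeR adjusted p = 0.0564) and had too few UMIs to be tested after subtraction. Of 11 genes of GABA receptors and uptake Gabrb1, a subunit of GABA-A receptors, was lower against MCAO contra, at 429, 485, 407, 380, 254 and 113 CPM (−1.24 ± 0.30, edgeR adjusted p = 0.0176, and 0.0726 with DESeq2). Synaptic adhesion genes had 3 of 27 lower against Sham (Cntnap2, Ptprd and Il1rapl2), with a median of −0.08. None of 22 that could be tested after subtraction of the neuronal profile was lower. Of these 3 genes only Ptprd could be tested then, with −3.86 against −1.40 before subtraction (edgeR adjusted p = 0.0782). Cntnap2 was also lower against MCAO contra (−1.22, edgeR adjusted p = 0.00469).

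Matrix genes were called in both directions. Of 15 tested Col11a1 and Chst11 were higher and Chsy3 lower against Sham (median 0.30), and against MCAO contra Col11a1 was higher and Gpc5, Col5a3 and Chsy3 lower (median 0.17). Gpc5, a heparan sulfate proteoglycan, was at 2204, 2180, 2725, 2430, 1499 and 1026 CPM, with both MCAO ipsi libraries below the other 4 (against MCAO contra −1.06 ± 0.22, edgeR adjusted p = 0.00481). The collagen chain Col5a3 had −1.11 against MCAO contra (edgeR adjusted p = 0.0108). In the guidance and migration list of 18 tested genes Sema3e was higher in both comparisons, and the Slit receptor Robo1 was lower against MCAO contra, at 1574, 1999, 2125, 1920, 1368 and 910 CPM (−0.86, edgeR adjusted p = 0.0232).

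Groups linked with injury were mostly too sparse to test. Against MCAO contra 1.31% of all tested genes were higher. Only 4 of 43 reactive and immune genes found had enough UMIs, of which Il1rap was higher against Sham and Il1rap and Il33 against MCAO contra, and the summed level of the 43 was 601, 606, 543, 570, 1238 and 2184 CPM. Il33, an alarmin of the nucleus, had 0 UMIs in both Sham libraries, 4 and 2 in MCAO contra and 17 and 38 in MCAO ipsi (5.22 times MCAO contra, counting interval 2.25 to 14.8; edgeR adjusted p = 0.0186). Few nuclei held these UMIs: 4 and 2 nuclei in MCAO contra and 3 and 14 in MCAO ipsi had any, with up to 11 UMIs in 1 nucleus of each MCAO ipsi library, so the share of nuclei with Il33 was 2.21% in mMCAO ipsi against 3.25% in mMCAO contra, and 7.45% in sMCAO ipsi against 2.30% in sMCAO contra. After subtraction of the neuronal profile Il33 had 2.26 and was not called (edgeR adjusted p = 0.0771). Of 5 hypoxia and glycolysis genes tested the hypoxia-inducible factor Hif1a was higher against MCAO contra, at 85.9, 60.6, 64.6, 70.0, 131 and 394 CPM (2.07 ± 0.44, edgeR adjusted p = 0.00567), and not called against Sham (1.95 ± 0.73, 0.201). In sMCAO ipsi, where Hif1a was highest, myeloid markers and mitochondrial transcripts were highest too. Without myeloid nuclei Hif1a was at 124 and 329 CPM in the MCAO ipsi libraries and at most 90.6 CPM in the others.

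Of 7 tested genes of Notch, Wnt and BMP signalling Maml3 was higher in both comparisons with MCAO ipsi (median 0.97 against Sham and 0.52 against MCAO contra), and the summed level of the 41 listed genes was 2462, 3089, 3171, 2949, 4407 and 4564 CPM. Maml2, which was not called, held 50.8% of the UMIs of this list. Of 9 proteases and inhibitors Adam19, a membrane metalloprotease, was higher against MCAO contra, beside 1.31% of all tested genes. None of 20 growth factor and receptor genes, 6 heat shock and unfolded protein genes, 6 genes of cholesterol and lipid synthesis and 5 cell cycle genes outside the rule was called in any comparison. All 27 immediate early genes found were below the minimum for the test, and their sum was 85.9, 121, 96.9, 130, 144 and 367 CPM.

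**Figure D5:**
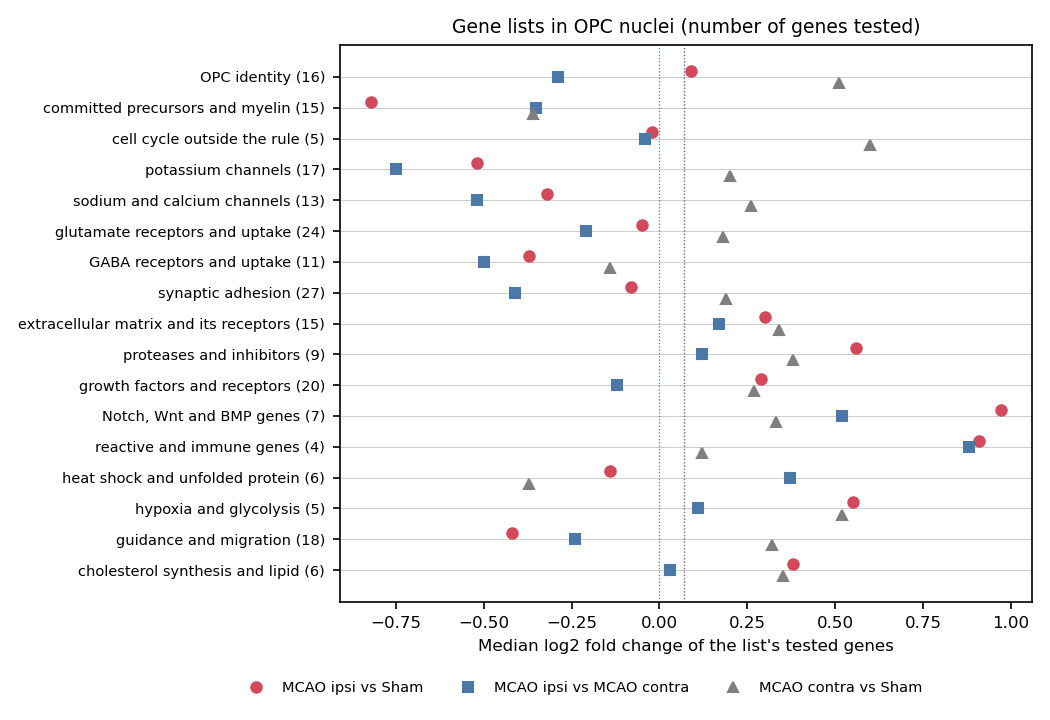
Median log2 fold change in OPC nuclei of each gene list (horizontal axis) for MCAO ipsi against Sham, MCAO ipsi against MCAO contra and MCAO contra against Sham, with the number of tested genes. Dotted lines mark the medians over all tested genes. The immediate early genes, of which none was tested, are left out. Committed precursor and myelin genes lie lowest against Sham at −0.82, potassium channel genes lowest against MCAO contra at −0.75, and Notch, Wnt and BMP genes highest against Sham at 0.97.

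Between the hemispheres of the MCAO rats, the genes with the largest positive change were close to absent from MCAO contra. Glis3, a zinc finger transcription factor, had no UMI in either MCAO contra library and 131 and 195 CPM in the MCAO ipsi libraries, with 0 and 60.6 in Sham, and was at least 14.8-fold higher than in MCAO contra at a floor of 3 UMIs over the group (edgeR adjusted p = 1.09e-04). Hs3st5, which sulfates heparan sulfate, was at 85.9, 60.6, 19.4, 10.00, 165 and 106 CPM (2.94 ± 0.61, edgeR adjusted p = 0.00528). MCAO contra and Sham held 4 UMIs of Hs3st5 each, with a difference that was not called (edgeR adjusted p = 0.673). Few nuclei held Hs3st5: 5.41% and 5.00% in Sham, 2.44% and 1.15% in MCAO contra, and 7.35% and 4.26% in MCAO ipsi. After thinning to 500 UMIs these shares were 2.70% and 5.00%, 1.63% and 0%, and 1.47% and 2.13%. The thinned shares thus did not place both MCAO ipsi libraries above both MCAO contra libraries. Ybx3, an RNA- and DNA-binding protein, was at 28.6, 60.6, 12.9, 20, 110 and 142 CPM (2.96 ± 0.60, edgeR adjusted p = 0.00469).

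Adam19 was at 0, 60.6, 19.4, 20, 117 and 142 CPM (2.68 ± 0.58, edgeR adjusted p = 0.00675). The remaining gene, Gpnmb, a glycoprotein of phagocytes, was at 0, 0, 25.8, 20, 82.5 and 295 CPM (3.09 ± 0.61, edgeR adjusted p = 0.00468). Myeloid nuclei carried part of it: without them the MCAO ipsi libraries were at 77.6 and 180 CPM and the gene was too sparse to test. The other 4 genes were called without myeloid nuclei.

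Further genes of this kind were picked after their values were seen. Hmga2, a chromatin protein of growing cells, had no UMI in the 4 Sham and MCAO contra libraries and 16 and 57 in mMCAO ipsi and sMCAO ipsi, or 110 and 189 CPM, which was at least 13.9-fold above MCAO contra (edgeR adjusted p = 2.15e-04). Because the Sham sums are small, the bound against Sham was only 2.80-fold. Reln, the matrix protein reelin, was at 57.2 and 0 CPM in Sham, 0 in both MCAO contra libraries and 82.5 and 99.3 in MCAO ipsi (at least 7.97-fold above MCAO contra, edgeR adjusted p = 0.00344).

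The injury genes Cd44, the hyaluronan receptor, and Vim, an intermediate filament, were also chosen after their values were seen. Cd44 had 0, 0, 0, 1, 10 and 57 UMIs over the libraries, 38.1 times as high in MCAO ipsi as in MCAO contra (counting interval 6.62 to 1529), and Vim 0, 0, 0, 0, 6 and 55 UMIs, at least 11.6-fold above MCAO contra. Without myeloid nuclei Cd44 had 8 and 34 UMIs in the MCAO ipsi libraries (62.1 and 130 CPM) and Vim 5 and 30 (38.8 and 115 CPM). Most UMIs of both genes came from sMCAO ipsi, where Cd44 was at 564 CPM in the 38 myeloid nuclei and at 103 CPM in the nuclei with Pdgfra, Cspg4 or C1ql1.

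The genes that fell most against MCAO contra were Cdh8, a cadherin, at 172, 60.6, 168, 210, 27.5 and 26.5 CPM (−2.76 ± 0.46, edgeR adjusted p = 7.68e-04), Hs6st3, a heparan sulfate sulfotransferase, at 172, 242, 168, 210, 75.6 and 19.9 CPM (−2.23 ± 0.47, 0.00540), Ccbe1 and Grm3, as above, and Nkain3, a partner of the sodium pump, at 85.9, 363, 459, 370, 144 and 99.3 CPM (−1.85 ± 0.31, 8.27e-04). The MCAO ipsi libraries lay below the other 4 for Cdh8, and for Hs6st3 too. In Sham neurons Hs6st3 was 7.18 times and Cdh8 3.82 times as high as in Sham OPC nuclei. After subtraction of the neuronal profile Hs6st3 had too few UMIs to be tested and Cdh8 was called (edgeR adjusted p = 0.00981). For Nkain3 they overlapped the range of the Sham libraries.

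Moderate and severe infarcts were compared as 2 single libraries, by the ratio of levels with a counting interval and no test of severity. In MCAO ipsi the severe library was 2.28 times the moderate one for Col11a1 (1.66 to 3.18), 2.0 times for Lpp (1.30 to 3.16), 3.57 times for Gpnmb (1.95 to 7.17) and 1.37 times for Trps1 (1.05 to 1.81). Without myeloid nuclei these ratios were 2.98 for Col11a1 (2.01 to 4.54), 1.89 for Lpp (1.20 to 3.10), 2.32 for Gpnmb (1.16 to 5.14) and 1.25 for Trps1 (0.925 to 1.70), the last with an interval that included 1. For Sema3e the ratio was 0.831 (0.642 to 1.08) and for Grm3 0.842 (0.330 to 2.32), so that the counts did not separate the libraries. Kcnip4 (0.268, 0.196 to 0.364), Ptprd (0.388, 0.318 to 0.471), Cntnap2 (0.542, 0.381 to 0.774) and Ccbe1 (0.558, 0.316 to 0.994) were lower in the severe library. The first 3 were 5.21, 3.54 and 5.35 times as high in Sham neurons as in Sham OPC nuclei, and neuron markers in OPC nuclei were also lower in the severe library (129 against 165 CPM, from 39 and 24 UMIs). The part of neuronal RNA in these ratios was not tested. Without myeloid nuclei the intervals of Kcnip4, Ptprd and Cntnap2 stayed under 1 and that of Ccbe1 reached 1.02.

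The change in OPC nuclei was set against that in astrocyte and oligodendrocyte nuclei of the same libraries by the interaction of cell class and group, with the library as a block. Of 5299 genes tested against astrocytes, the change from Sham to MCAO ipsi was called different for 138 (2.60%), more positive in OPC nuclei for 120 (2.26%) and more negative for 18 (0.340%). Of 6139 tested against oligodendrocytes 202 (3.29%) were called, 190 (3.09%) and 12 (0.195%). After subtraction of the neuronal profile from both classes the counts were 4 and 8 against astrocytes and 17 and 2 against oligodendrocytes. The counts of both comparisons also moved with DESeq2 and when a library was left out, as given at the end.

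Sema3e and Grm3 differed from both glial classes. Sema3e had a log2 change of −0.34 in astrocytes and −0.05 in oligodendrocytes, and the difference to OPC nuclei was 2.94 ± 0.67 and 2.62 ± 0.54 (edgeR adjusted p = 0.00466 and 1.03e-04). For Grm3 the changes were 0.15 and 0.05 and the differences −3.50 ± 0.46 and −3.31 ± 0.51 (edgeR adjusted p = 7.11e-07 and 5.30e-08). Maml3 fell in astrocytes (−1.78) and differed from them by 3.35 ± 0.48 (edgeR adjusted p = 3.11e-06). Col11a1 rose in astrocytes too (2.60), with a difference to OPC nuclei of −0.42 ± 0.72 that was not called (edgeR adjusted p = 0.902).

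Mbp had a log2 change of 0.17 in oligodendrocytes, and the difference to OPC nuclei was −1.69 ± 0.41 (edgeR adjusted p = 0.00224). Kcnip4, Galntl6 and Ptprd, which were higher in Sham neurons than in Sham OPC nuclei, are given separately. Kcnip4 fell in astrocytes by 3.39 on the log2 scale, further than in OPC nuclei (difference 1.56 ± 0.33, edgeR adjusted p = 0.00173), and in oligodendrocytes its change was −2.17, with a difference of 0.35 ± 0.34 that was not called (0.782). Galntl6 had −3.73 in astrocytes and −2.33 in oligodendrocytes, and neither difference was called (edgeR adjusted p = 0.386 and 0.881). Ptprd had −1.92 in astrocytes and −0.33 in oligodendrocytes. Its differences of 0.58 ± 0.31 and −0.98 ± 0.35 were not called (edgeR adjusted p = 0.475 and 0.121).

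The genes of GABA synthesis, Gad1 and Gad2, were near the limit of detection in OPC nuclei. Gad1 had 2 UMIs in Sham, 6 in MCAO contra and 6 in MCAO ipsi, and Gad2 had 1, 5 and 10, and every counting interval of a ratio between groups included 1.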

How the data were processed

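Single nuclei of rat brain hemispheres were sequenced with a 5′ droplet kit. The authors aligned reads to mRatBN7.2 with Cell Ranger 7.0.0, intronic reads included, and deposited raw UMI counts per gene and nucleus for 6 libraries. Removal of free RNA, nucleus filters and doublet removal were later steps of the study and are not in these counts, and no doublet caller was run here. Of 30560 rows some carry Ensembl identifiers only, which left Ptprz1 and several list members unmatched.

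Members and gene lists were chosen with earlier results of these data known. UMIs were summed over OPC nuclei per library and tested with edgeR 4.0.16 (R 4.3.3; TMM scaling, filterByExpr, quasi-likelihood F test, Benjamini-Hochberg adjustment), with all 6 libraries in 1 fit and group as the term. DESeq2 1.42.0 was an alternative, as was the rat pool as a centred term of the MCAO libraries. Shares have 95% Clopper-Pearson intervals and ratios of counts exact intervals (scipy 1.17.1), which cover counting error only. A group at 0 UMIs was set to a floor of 3 UMIs over the group. Thinning used 500 UMIs per nucleus, with 1000 neurons per library. The neuronal profile of a library was scaled by 11 neuron markers outside the rule and subtracted from the OPC sums. The fits were tested on simulated data.

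The text names, against Sham, the 12 called genes with the largest change in each direction (5 in each of the other comparisons) whose MCAO ipsi libraries both lay beyond both compared libraries, with a mean of at least 50 CPM and a gene symbol, and up to 4 called genes of each list. Other genes were added after their values were seen: Hmga2, Reln, Cd44, Vim, members of lists that were not called, and the genes named for their ratio to other classes.

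Per the study's methods both hemispheres of an MCAO rat pool come from the same rats. The difference of severe and moderate libraries correlated weakly between hemispheres (r = 0.03, rho = 0.02 across 3126 genes, 10 CPM added before the logarithm).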

Additional observations from a re-analysis of the deposited data

Results flagged for a closer look

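The change from Sham to MCAO ipsi in OPC nuclei differed from that in another glial class of the same libraries, by the edgeR interaction test, for 18 pairs of named gene and class. The values are the log2 change in OPC nuclei minus that in the other class. Against oligodendrocytes the differences were 5.25 for Stk32a, 3.43 for Rab8b, 2.62 for Sema3e, 3.66 for Col11a1, 2.75 for Chst11, 2.72 for Brinp3 and 2.26 for Sox6. They were −3.31 for Grm3, −1.86 for Fnbp1 and −1.69 for Mbp.

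Against astrocytes they were 2.94 for Sema3e, 3.35 for Maml3, 2.46 for Brinp3, 1.56 for Adgrl3, −3.50 for Grm3 and −1.82 for Fnbp1. Kcnip4 (1.56) and Cntnap2 (1.33) had positive differences because the log2 change in astrocytes, −3.39 and −2.34, was further below 0 than that in OPC nuclei. In Brinp3 the change in astrocytes was −1.27 (edgeR adjusted p = 0.00151), opposite to OPC nuclei. In oligodendrocytes it was −1.39, which was not called (edgeR adjusted p = 0.0983). The Sham sums of Stk32a and Rab8b hold 1 UMI each.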

How the results depend on the processing

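Counts of called genes are given as higher and lower. Between MCAO ipsi and Sham (15 and 29) they were 57 and 13 with no filter on low counts, 33 and 55 with the replicate block (7 higher for the moderate rat pool alone in that fit, 46 and 73 for the severe one), 0 and 0 among nuclei with at least 6 marker UMIs and 0.5%, 3 and 7 after subtraction of the neuronal profile, and 14 lower among nuclei with Pdgfra, Cspg4 or C1ql1. Between MCAO ipsi and MCAO contra (41 and 48) they were 14 higher with DESeq2, 75 higher with no filter, 5 and 2 among the 6-UMI nuclei, 23 and 31 after subtraction, and 85 lower with the replicate block. Between MCAO contra and Sham (0 and 0) they were 13 higher with no filter, 1 and 1 with at most 1 neuronal UMI, 1 lower with library totals only, 1 lower after subtraction, 2 lower with the replicate block and 6 lower for the severe pool alone. The difference to astrocytes (120 and 18) was 79 higher with DESeq2, and 4 and 8 after subtraction. The difference to oligodendrocytes (190 and 12) was 76 and 20 with DESeq2, 17 and 2 after subtraction, 23 lower with RLE factors and 7 lower among nuclei with Pdgfra, Cspg4 or C1ql1.

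With single libraries left out, where a lone library is assumed to vary like the other groups, the ranges were 0 to 85 and 0 to 69 against Sham, 12 to 158 and 13 to 158 against MCAO contra, 0 to 1 and 0 to 3 for MCAO contra against Sham, 78 to 170 and 7 to 21 against astrocytes, and 53 to 252 and 1 to 12 against oligodendrocytes. Without mMCAO ipsi 158 genes were higher and 158 lower against MCAO contra, without sMCAO ipsi 12 and 19, without mMCAO contra 21 and 13, and without sMCAO contra 26 and 16.

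The OPC share (Sham L, Sham R, mMCAO contra, sMCAO contra, mMCAO ipsi, sMCAO ipsi) moved to 0.0762, 0.0294, 0.235, 0.213, 0.394 and 1.0% with at least 6 marker UMIs and 0.5%, to 0.168, 0.110, 0.573, 0.574, 0.757 and 1.78% with at most 1 neuronal UMI, to 1.61, 1.13, 3.48, 3.50, 3.47 and 3.49% of nuclei with at most 3 neuronal UMIs, and to 0.183, 0.0881, 0.676, 0.658, 0.718 and 1.35% with Pdgfra, Cspg4 or C1ql1. Thinned to 1000 UMIs it moved to 1.08% in mMCAO contra and 3.54% in sMCAO ipsi, and without myeloid nuclei to 1.73% in sMCAO ipsi. The cause of these shifts was not tested. For single named genes 464 results kept their side of the threshold, 177 lost it and 0 reversed. The replicate block ended no call of the 37 named results, and it added calls of Kcnip4 (adjusted p = 6.98e-06) and Galntl6 (0.0285) against MCAO contra, of Kcnip4 between MCAO contra and Sham (0.01) and of Gpnmb against Sham (0.0135). For the moderate pool alone 16 kept and 11 lost their call. The alternatives without myeloid nuclei, with Pdgfra, Cspg4 or C1ql1 only and for single rat pools were chosen after seeing the data. Depth limits the comparisons with Sham, whose OPC nuclei hold 51446 UMIs in all.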
